A study of Homo sapiens with 14 samples.

Results

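The insulin-like growth factor (IGF) axis was followed in SCC23 cells, an established line of head and neck squamous cell carcinoma (HNSCC), through 10 genes: the binding proteins IGFBP2, IGFBP3, IGFBP4, IGFBP5 and IGFBP6, the receptors IGF1R, IGF2R and INSR, and the receptor substrates IRS1 and IRS2. These 10 were taken by gene name from the 59471 genes that were counted, whatever their level, and 39032 of the 59471 had a count in at least 1 library. RNA was sequenced from 14 libraries. KMT2D-WT cells carried a guide against LacZ, and KMT2D-KO cells were the CRISPR/Cas9 lines KO1 and KO2, each grown from sorted cells with no cloning of single cells described. Cells were kept in high-glucose medium (+Glc) or deprived of glucose for 6 h (-Glc), and each glucose condition had 3 WT and 4 KO libraries from 2 experiments. Experiment 1 gave 1 WT, 1 KO1 and 1 KO2 library in each condition, and experiment 2 gave 2 WT, 1 KO1 and 1 KO2 library. The comparisons ask how loss of KMT2D, an enzyme that adds the H3K4me1 mark at enhancers, and lack of glucose change the cells' genes.

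IGF1 and IGF2 are secreted hormones that act through IGF1R, a tyrosine kinase closely related to the insulin receptor INSR. The activated receptors phosphorylate IRS1 and IRS2, adaptors that recruit PI3K and so switch on AKT. IGF2R has no kinase and carries IGF2 and mannose-6-phosphate proteins to lysosomes, while the binding proteins hold the hormones outside the cell and release them when proteases cut them. In carcinoma cells, IGFBP3 and IGFBP5 are also known as secreted factors that restrain growth or change adhesion, depending on the setting.

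The stretch of 100 bases just upstream of the transcription start is shown for the 5 genes on which the results turn: IGFBP4 and INSR, which changed in both glucose conditions, IRS1 and IRS2, which changed in -Glc cells, and IGFBP5, which was counted in few libraries. The sequences are those of RefSeq on GRCh38.p14, written 5′ to 3′ on the strand of the gene, and capitals mark the GC box GGGCGG and the TATA letters TATAAA on either strand.
IGFBP4 (chr17:40443350-40443449, plus strand): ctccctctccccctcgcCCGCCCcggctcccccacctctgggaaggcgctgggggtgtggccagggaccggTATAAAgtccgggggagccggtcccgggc
IGFBP5 (chr2:216695550-216695649, minus strand): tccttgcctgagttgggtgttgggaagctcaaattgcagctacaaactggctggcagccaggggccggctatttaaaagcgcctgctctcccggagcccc
INSR (chr19:7294415-7294514, minus strand): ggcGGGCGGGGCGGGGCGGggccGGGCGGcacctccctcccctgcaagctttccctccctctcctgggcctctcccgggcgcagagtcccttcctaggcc
IRS1 (chr2:226799821-226799920, minus strand): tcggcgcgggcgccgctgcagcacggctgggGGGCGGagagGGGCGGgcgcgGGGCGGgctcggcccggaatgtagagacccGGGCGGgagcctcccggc
IRS2 (chr13:109786584-109786683, minus strand): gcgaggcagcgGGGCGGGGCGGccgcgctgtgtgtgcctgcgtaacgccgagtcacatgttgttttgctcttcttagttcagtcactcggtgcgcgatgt

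RefSeq gave 12 start windows for the 10 genes, 3 of them for IGFBP2. Over the 250 bases upstream, the GC box was found in 10 of these 12 windows, against 42.6% of all 35116 windows in the same table, and in every member but IGFBP5. IGFBP4 alone held the letters TATAAA, which 10.7% of all windows hold, and IGF2R alone held the E-box CACGTG, which 6.34% hold. The AP-1 letters TGACTCA (4.20% of all windows) and the letters TGATGCAA (0.772%) were in none of the 12. Both strands were searched and overlapping matches were counted. The GC content of the 250 bases was 61.2% for IGFBP5 and IGFBP6, between 71.6% and 81.2% for IGFBP3, IGFBP4, the receptors and the substrates, and 58% at the median of all windows. These matches describe letters in a window and not binding.

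Library depth ran from 15669154 to 62968057 counts. For experiment 2 in glucose the files record paired reads with each mate counted by itself, and in those 4 libraries the even share of low counts (1 to 10) was 67.4% to 70.6%, where the other 10 had 37.4% to 42.7%. KMT2D itself lay between 265 and 279 CPM (counts scaled to a common library size by TMM normalization over the 14 libraries) in WT +Glc cells. The KO1 line had 182 and 184 CPM, and the KO2 line had 322 and 373 CPM. In -Glc cells WT libraries had 230.3 to 239 CPM. Of the -Glc KO libraries, that of KO1 in experiment 1 was lowest at 19.9 CPM, KO2 of that experiment had 190.1 CPM, and the pair labelled KO1 and KO2 in experiment 2 had 152 and 145 CPM. The KO2 level in glucose was above every WT library. Small CRISPR lesions need not lower an mRNA, so these levels do not tell whether the gene was disrupted. The paper reports the knockout in SCC23 cells from genomic sequencing and western blot, and libraries are named here as labelled. In 248 genes that differed between KO1 and KO2 in glucose, the -Glc library of experiment 2 labelled KO1 lay at a median log2 distance of 2.10 from the KO1 library of experiment 1 and of 0.52 from the KO2 library, so it resembled KO2 and not KO1. The KO1 -Glc library of experiment 1 stood apart in another way, with a median log2 ratio to its WT library of 0.33 in genes with under 2 kb of exons and -0.35 in genes with over 8 kb. In the other 3 KO -Glc libraries the ratios were 0.16 to 0.29 and -0.11 to -0.08. The summed level of the squamous markers KRT5, KRT14, KRT17, TP63, EPCAM and CDH1 was 499.6 to 2439 CPM over all libraries. The lowest values of some single markers fell in experiment 2 with glucose, where those of KRT5, KRT14 and KRT17 were 1.503, 26.46 and 24.0 CPM. In the other 10 libraries their lowest values were 8.777, 82.8 and 76.5 CPM. The ranges overlapped, since the highest values of these 3 genes in experiment 2 with glucose were 82.8, 222 and 81.2 CPM. The lowest CDH1 value was also lower in experiment 2 with glucose (49.8 against 58.4 CPM). Those of TP63 (72.9 against 70.9 CPM) and EPCAM (311 against 231 CPM) were not. The 3 leukocyte markers together reached 0.290 CPM.

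Per kilobase of exon, which allows levels to be compared between genes, IGFBP6, IGFBP4, IGF2R and IGFBP3 were highest. In WT +Glc cells IGFBP6 had 17.9 ± 8.07 CPM per kb (SD, n = 3), IGFBP4 12.4 ± 1.63 CPM per kb, IGF2R 11.1 ± 1.16 CPM per kb and IGFBP3 10.6 ± 3.08 CPM per kb. These 4 did not differ beyond their spread. Next came IRS1 with 5.08 ± 0.389 CPM per kb, IRS2 with 5.06 ± 0.724 CPM per kb and IGF1R with 4.81 ± 0.451 CPM per kb, which lay within each other's spread as well. INSR had 3.06 ± 0.446 CPM per kb. IGFBP5 (0.106 ± 0.124 CPM per kb) and IGFBP2 (0.0243 ± 0.0211 CPM per kb) were close to the floor. The hormones themselves were absent at this depth: IGF1 had at most 2 counts and IGF2 at most 1 count in any library, and INS was at 0. The limit that a count of 0 allows, 3 counts, lay between 0.0476 and 0.191 CPM for 1 library and covers counting error only.

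**Figure D1:**
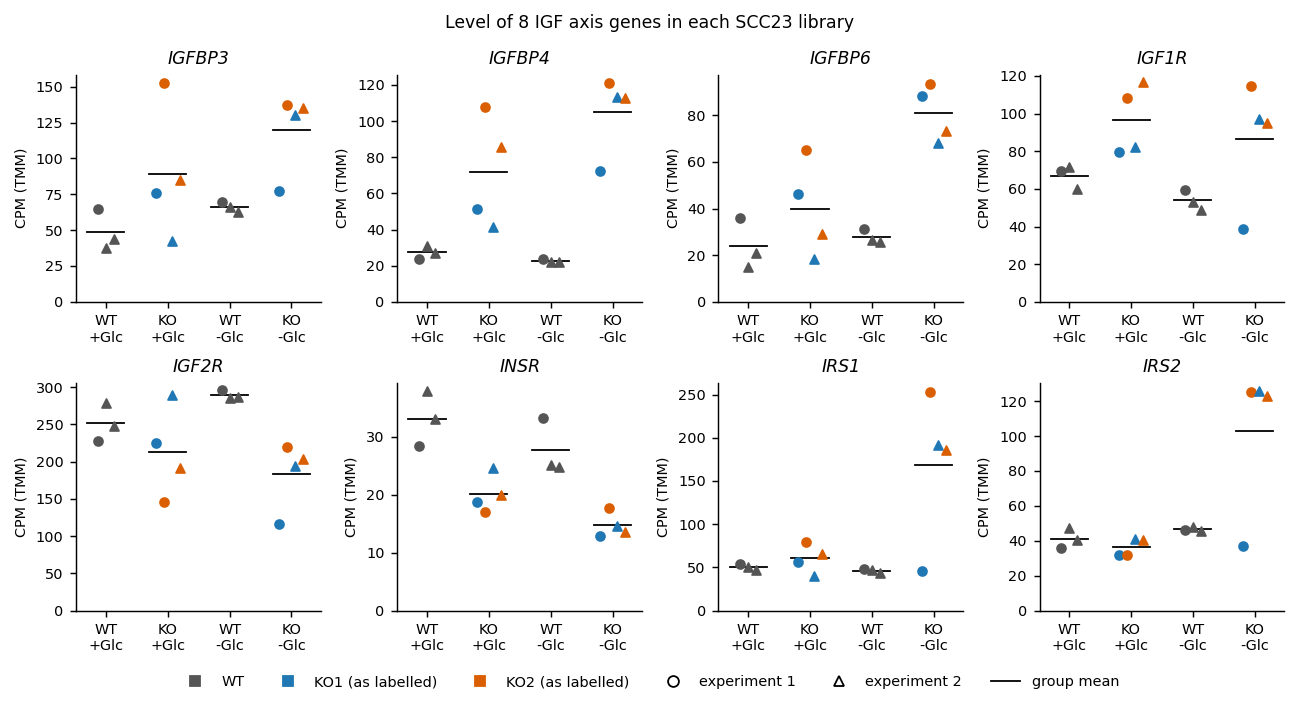
Level in CPM (vertical axes, each starting at 0) of the 8 members expressed in all libraries, by genotype and glucose condition, with colours for the line as labelled, circles for experiment 1, triangles for experiment 2 and a bar for the group mean. KO points of IGFBP4 lie above and those of INSR below all WT points in both conditions, and in -Glc cells the KO1 library of experiment 1 stays at the WT level of IRS1 (45.9 CPM) and below it for IRS2 (37.1 CPM).

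In cells kept in glucose, loss of KMT2D was accompanied by more IGFBP4 and IGF1R mRNA and less INSR mRNA. IGFBP5 was also called higher, although only the 4 libraries with both mates counted held any of its counts. Of the 10 members, all of which passed the filter on low counts, 3 were higher and 1 was lower in KO cells at an adjusted p under 0.05 (edgeR's quasi-likelihood test, experiment as covariate, Benjamini-Hochberg adjustment over 20423 genes). Over all genes tested, 13.0% were called higher and 11.7% lower. IGFBP2 and IGFBP5 passed the filter through the 4 libraries with both mates counted. The median log2 fold change was 0.52 over the members and 0.02 over all genes.

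IGFBP4 (chr17:40443450-40457725, plus strand, Ensembl annotation of GRCh38), a small binding protein that inhibits IGF action until PAPP-A cuts it, had 23.8, 31.0 and 27.2 CPM in the WT +Glc libraries (experiment 1, then WT1 and WT2 of experiment 2). KO1 had 51.3 and 41.3 CPM in experiments 1 and 2, and KO2 had 108 and 85.9 CPM. Every KO library was above every WT library, and KO2 was above KO1 in each experiment. The log2 fold change was 1.36 (standard error 0.32, edgeR adjusted p = 0.0147). Leaving out the WT library of experiment 1 ended the call (log2 fold change 1.11, edgeR adjusted p = 0.144), and so did leaving out WT2 of experiment 2 (1.37, edgeR adjusted p = 0.0674).

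INSR (chr19:7112255-7294414, minus strand), the insulin receptor, had 28.3, 38.0 and 33.0 CPM in WT cells, 18.8 and 24.5 CPM in KO1 and 17.0 and 20.0 CPM in KO2. Again the groups did not overlap, here with KO below WT. Its log2 fold change was -0.66 (standard error 0.12, edgeR adjusted p = 0.00354), and this call held when any 1 of the 7 libraries was left out. IGF1R (chr15:98648539-98964530, plus strand), its close relative and the main signalling receptor for IGF1, moved the other way. It had 69.4, 71.8 and 59.9 CPM in WT cells, 79.8 and 82.4 CPM in KO1 and 108 and 117 CPM in KO2. All KO libraries were above the WT libraries, with a log2 fold change of 0.54 (standard error 0.15, edgeR adjusted p = 0.0313). That call was lost without the WT library of experiment 1 (0.58, edgeR adjusted p = 0.142), WT1 (0.60, adjusted p = 0.0735) or WT2 (0.46, adjusted p = 0.131) of experiment 2, or the KO2 library of experiment 1 (0.46, adjusted p = 0.0585) or 2 (0.39, adjusted p = 0.0769).

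The members that did not pass the test in glucose were IGFBP2, IGFBP3, IGFBP6, IGF2R, IRS1 and IRS2. IGFBP3 (chr7:45912245-45921874, minus strand), the main carrier of IGFs in serum, had 64.4, 37.6 and 43.6 CPM in WT, 75.8 and 42.2 CPM in KO1 and 153 and 84.7 CPM in KO2. Its log2 fold change was 0.72 (standard error 0.28, edgeR adjusted p = 0.0967), and DESeq2 with the same design gave 0.73 with an adjusted p of 0.0298. IGFBP6 (chr12:53097436-53102345, plus strand), which prefers IGF2, had a log2 fold change of 0.49 (standard error 0.20, edgeR adjusted p = 0.111). Both genes were lower in experiment 2 than in experiment 1 in all lines. The KO1 library of experiment 2 lay between WT1 and WT2 of that same experiment for both genes. For IGFBP6 it had 18.5 CPM, against 15.0 and 21.1 CPM in WT1 and WT2. For IGF2R (chr6:159969082-160113507, plus strand) the log2 fold change was -0.19 (standard error 0.17, edgeR adjusted p = 0.484), for IRS1 (chr2:226731317-226799759, minus strand) 0.20 (0.18, adjusted p = 0.470) and for IRS2 (chr13:109752695-109786583, minus strand) -0.13 (0.09, adjusted p = 0.353).

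**Figure D2:**
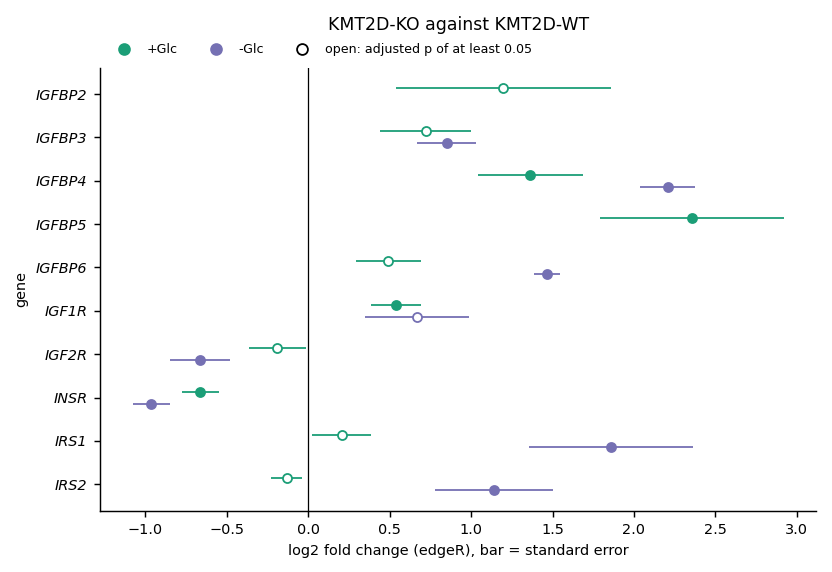
Log2 fold change of KMT2D-KO against KMT2D-WT cells (horizontal axis) for the 10 members in +Glc cells and the 8 tested in -Glc cells, with the standard error as a bar, filled points for an adjusted p under 0.05 and open points otherwise. IGFBP4 and INSR are filled in both conditions, at 1.36 and 2.21 and at -0.66 and -0.96, and IRS1 and IRS2 lie near 0 with glucose and at 1.86 and 1.14 without it.

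IGFBP5 (chr2:216672105-216695549, minus strand), the most conserved of the binding proteins and one that attaches to extracellular matrix, gave the largest log2 fold change of the members in glucose, 2.35 (standard error 0.57, edgeR adjusted p = 0.0233), from very few libraries. It had 106 and 29 counts in the WT1 and WT2 +Glc libraries of experiment 2, 443 in the KO1 library and 233 in the KO2 library. In each of the 10 other libraries it had 0 counts. On the CPM scale the 4 values were 1.57 and 0.489 in WT, 6.73 in KO1 and 3.96 in KO2, so both KO libraries were above both WT libraries, and the KO mean was 5.19 times the WT mean. The 0 counts of the other 10 libraries together allow a level of up to 0.0133 CPM.

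The positive libraries were thus the 4 libraries with both mates counted, and experiment 1 in the same medium had no count in any line. Glucose, experiment and the way of sequencing cannot be told apart for IGFBP5, and no effect of glucose on it was read. Of 14429 genes with at least 29 counts, the lowest count of IGFBP5, in each of those 4 libraries, 2 (0.0139%) had 0 counts in all the others: IGFBP5 and the pseudogene RPL41P1, which was singled out after its values were seen. Limit and pattern were both taken from IGFBP5, so this share is a description only. IGFBP2 (chr2:216632828-216664436, plus strand) is the tail-to-tail neighbour of IGFBP5 at a gap of 7668 bases. With glucose it had 0.177 and 0.169 CPM in WT1 and WT2 of experiment 2 and in KO1 and KO2 of that experiment 0.258 and 0.560 CPM, and at most 0.125 CPM elsewhere. Its log2 fold change in glucose was 1.20 (standard error 0.66, edgeR adjusted p = 0.246). Of the exonic bases of IGFBP5, 4.61% are shared with another annotated gene, as are 2.53% for IGF2R and 1.41% for IRS2, and the counting did not use strand.

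Of 5 fibroblast markers, COL1A2 and COL3A1 moved with IGFBP5 over the same libraries. COL1A2 had 0.857 and 0.422 CPM in WT1 and WT2, 5.33 CPM in KO1 and 3.24 CPM in KO2, against at most 0.0704 CPM in the other 10. COL3A1 had 0.207 and 0 CPM in WT1 and WT2, 5.25 CPM in KO1 and 3.23 CPM in KO2, and likewise at most 0.0704 CPM elsewhere. The order of the 4 libraries was the same for IGFBP5, COL1A2 and COL3A1. The other 3 markers differed in order or in the libraries that held them. DCN had 0.0296 and 0.0337 CPM in WT1 and WT2, 0.213 CPM in the KO1 library and 0.815 CPM in KO2, and PDGFRA had 0.0739, 0.118, 0.213 and 0.255 CPM, so both were highest in KO2. COL1A1, with 5.17, 4.99, 15.1 and 11.5 CPM, had the same order as IGFBP5 but was present in all 14 libraries, at up to 16.0 CPM in the other 10. The summed level of the 5 markers was 6.34 and 5.57 CPM in the 2 WT libraries, 26.1 CPM in KO1 and 19.1 CPM in KO2, and 3.11 to 16.0 CPM in the other 10. Over all +Glc libraries it was 5.57 to 6.95 CPM in WT and 12.4 to 26.1 CPM in KO cells. The part of other cells or of another RNA source in the IGFBP5 counts was not tested, and in bulk RNA fewer cells of a type and less RNA per cell cannot be told apart. The IGFBP5 call was lost in edgeR with no experiment term (1.94, adjusted p = 0.680) and in DESeq2 with no covariate (1.96, adjusted p = 0.843). It was also lost without the WT library of experiment 1, in which its count is 0 (2.36, edgeR adjusted p = 0.0580), without the KO1 library of experiment 2 (1.90, adjusted p = 0.0711) and without WT2 of experiment 2 (1.75, adjusted p = 0.0900).

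**Figure D3:**
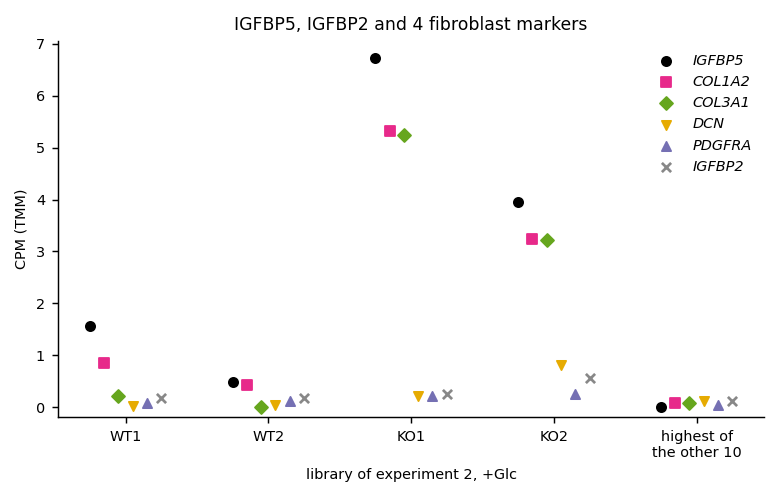
CPM of IGFBP5, IGFBP2 and 4 fibroblast markers in the 4 libraries of experiment 2 with glucose, and the highest value of each gene among the other 10 libraries. IGFBP5, COL1A2 and COL3A1 are highest in KO1 (6.73, 5.33 and 5.25 CPM), next in KO2 and low in both WT libraries, and the highest value of each elsewhere is 0.0704 CPM or less.

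The genes with a mean of at least 1 CPM whose log2 level followed IGFBP5 most closely over the 14 libraries, after the mean of each experiment and glucose condition was taken off, were OTUB2 (Pearson's r = 0.93), AMZ2P1 (0.88), PSMC1P9 (0.88), KSR1 (0.87) and IPO13 (0.87), among 14266 genes. These values rest on the 4 libraries in which IGFBP5 was counted, since it is at 0 in all others, and they are a description. OTUB2, the first of them, had 0.917 and 0.523 CPM in WT1 and WT2, 3.11 CPM in KO1 and 1.82 CPM in KO2 there, and was present in the other libraries as well.

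Without glucose, IGFBP3, IGFBP4 and IGFBP6, the binding proteins expressed in all libraries, were higher in KO cells, the receptors IGF2R and INSR were lower, and the substrates IRS1 and IRS2 were higher. Summed fibroblast, endothelial and squamous markers, and gene levels by exon length, moved with the same groups. The squamous sum was 854 to 859 CPM in WT and 944 to 2439 CPM in KO -Glc libraries. The leukocyte sums overlapped, at 0 to 0.0888 CPM in WT and 0 to 0.142 CPM in KO. The summed level of the 5 fibroblast markers was 3.11 to 5.53 CPM in WT and 7.19 to 13.97 CPM in KO -Glc libraries, and that of the 2 endothelial markers, PECAM1 and CDH5, was 0.352 to 0.770 CPM and 2.00 to 3.31 CPM. Outside experiment 2 with glucose, COL1A2, COL3A1, DCN and PDGFRA each had at most 0.125 CPM, so the fibroblast sum was nearly all COL1A1. PECAM1 had at most 0.184 CPM there, so the endothelial sum was mostly CDH5. Genes with under 2 kb of exons had a median log2 ratio to WT of 0.16 to 0.33 in the 4 KO libraries, and those with over 8 kb of -0.35 to -0.08. IGFBP6 (1.35 kb) and IGFBP4 (2.21 kb) are the shortest members and were higher, and INSR and IGF2R are long and were lower. IRS2 (8.16 kb), IRS1 (9.95 kb) and IGF1R (13.9 kb) are also over 8 kb. Their log2 fold changes were positive (1.14, 1.86 and 0.67, the last not called). The part of the markers and of exon length in the members' values was not tested. Of the 8 members that passed the filter, 5 were called higher and 2 lower by edgeR at an adjusted p under 0.05. The background was high in this condition, since 25.9% of the 16782 genes tested were called higher and 24.9% lower. The median log2 fold change was 1.00 over the 8 members and 0.00 over all genes. IGFBP5 and IGFBP2 were too low to be tested. In experiment 2 the 2 WT libraries were very close to each other, as were the 2 KO libraries, and with each of these pairs summed to 1 library IGFBP4, IGFBP6 and INSR were the 3 members still called.

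IGFBP4 had 23.7, 22.0 and 21.9 CPM in the WT -Glc libraries, in the order used above. The KO libraries of experiment 1 had 72.3 CPM (KO1) and 121 CPM (KO2), and those of experiment 2, labelled KO1 and KO2, had 114 and 113 CPM. The groups were wide apart, and the log2 fold change was 2.21 (standard error 0.17, edgeR adjusted p = 1.24e-04). IGFBP6 had 31.1, 26.4 and 25.5 CPM in WT cells and 88.4, 93.6, 68.1 and 73.3 CPM in the KO libraries, in the order just given, a log2 fold change of 1.47 (0.08, edgeR adjusted p = 4.54e-05). IGFBP3 had 69.8, 66.2 and 62.5 CPM in WT cells and 77.3, 137, 130.2 and 135 CPM in the KO libraries, a log2 fold change of 0.85 (0.18, edgeR adjusted p = 0.00718). Both were above the WT range in all 4 KO libraries, IGFBP3 by little in KO1 of experiment 1.

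INSR had 33.2, 25.2 and 24.8 CPM in WT -Glc cells and 12.9, 17.7, 14.7 and 13.5 CPM in the KO libraries. All KO libraries were below the WT libraries, and the log2 fold change was -0.96 (standard error 0.11, edgeR adjusted p = 6.15e-04). For IGF2R, the scavenger of IGF2, the WT libraries had 296, 286 and 287 CPM and the KO libraries 116, 219.8, 195 and 204 CPM. The log2 fold change was -0.67 (0.18, edgeR adjusted p = 0.0207). Each WT library, when left out, ended the IGF2R call, as did each KO library of experiment 2 (log2 fold change from -0.58 to -0.70, edgeR adjusted p from 0.0542 to 0.136). IGF1R had 59.6, 53.1 and 49.0 CPM in WT cells and 39.0, 114, 97.1 and 95.3 CPM in KO cells, so that KO1 of experiment 1 lay below and the other 3 above the WT range. Over all of them its log2 fold change was 0.67 (0.32, edgeR adjusted p = 0.123), and without KO1 of experiment 1 it was 0.89. The other 3 KO libraries resembled KO2. The WT libraries of experiment 2 formed a very close pair, as did its KO libraries, so a p-value there would rest on that closeness and is not given.

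The substrates split the KO libraries. IRS1, the adaptor that couples IGF1R and INSR to PI3K, had 48.2, 47.1 and 43.2 CPM in WT -Glc cells. In experiment 1 the KO1 library had 45.9 CPM and the KO2 library 252 CPM, and in experiment 2 the libraries labelled KO1 and KO2 had 192 and 185 CPM. In this way 3 KO libraries were far above the WT range, and 1 was inside it. The log2 fold change over the 4 was 1.86 (standard error 0.50, edgeR adjusted p = 0.0193). IRS2, a related adaptor prominent in liver and beta cells, had 46.1, 48.0 and 45.8 CPM in WT cells and 37.1, 125, 126 and 123 CPM in the KO libraries in the same order. Its log2 fold change was 1.14 (0.36, edgeR adjusted p = 0.0350). Leaving out KO1 of experiment 1 raised the values to 2.13 for IRS1 and 1.38 for IRS2.

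Neither call held throughout when single libraries were left out. IRS1 lost the call without any 1 of the 3 WT libraries or of the 2 KO libraries of experiment 2 (log2 fold change from 1.79 to 2.01, edgeR adjusted p from 0.0553 to 0.0756). IRS2 lost it without any of these 5 and without KO2 of experiment 1 (0.84 to 1.35, edgeR adjusted p from 0.0752 to 0.114).

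The glucose conditions can be set side by side within an experiment and a line as labelled. The IRS1 level without glucose was 0.886 times that with glucose in WT and 0.822 times in KO1, but 3.16 times in KO2, all of experiment 1. In experiment 2 it was 0.927 times in WT, 4.73 times in the line labelled KO1 and 2.83 times in KO2. That KO1 ratio sets a -Glc library that resembled KO2 against the +Glc library of KO1. Line and glucose cannot be told apart in it, for IRS1 or for IRS2. IRS2 showed the same split, at 1.28 times in WT, 1.17 times in KO1 and 3.94 times in KO2 of experiment 1, and 1.07, 3.07 and 3.04 times in experiment 2. The high values thus came from KO2 of experiment 1 and from both KO libraries of experiment 2, and the library labelled KO1 there resembled KO2 over the 248 genes that differ between the lines. The -Glc library that resembled KO1, that of experiment 1, is also the one in which long genes were low. In experiment 2 the glucose conditions also differ in the counting of mates.

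**Figure D4:**
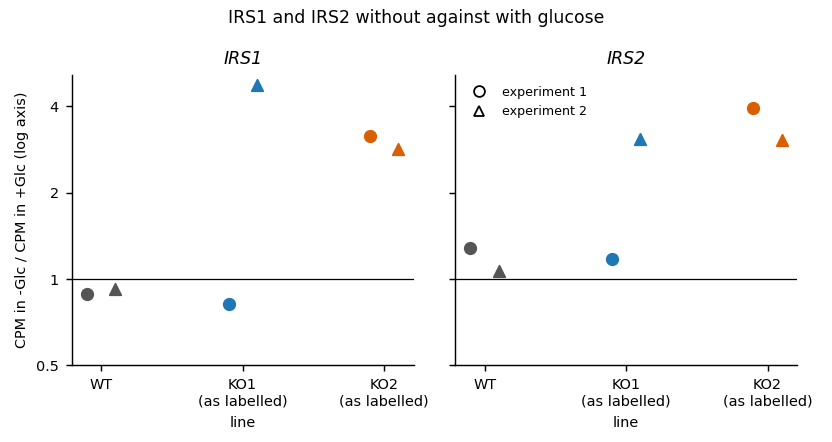
Ratio of the CPM without glucose to the CPM with glucose (log axis) of IRS1 and IRS2 for WT, KO1 and KO2 as labelled, with a circle for experiment 1 and a triangle for experiment 2 (the mean of the 2 WT libraries there). The -Glc library labelled KO1 in experiment 2 resembled KO2. WT and KO1 of experiment 1 lie between 0.822 and 1.28, and the other KO points between 2.83 and 4.73.

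Exon lengths can be set beside the members' levels in KO1 of experiment 1 without glucose. Relative to the WT library of the same experiment, IGFBP6 with 1.35 kb of exons was at 2.84 times and IGFBP4 with 2.21 kb at 3.04 times, IGFBP3 with 4.57 kb at 1.11 times, IRS2 with 8.16 kb at 0.806 times and IRS1 with 9.95 kb at 0.953 times. INSR with 10.8 kb was at 0.389 times, IGF1R with 13.9 kb at 0.653 times and IGF2R with 22.6 kb at 0.393 times. The order by length was not strict. In the other 3 KO -Glc libraries IGFBP6 was at 2.62 to 3.01 times, IGFBP4 at 5.09 to 5.16 times, IGFBP3 at 1.97 to 2.10 times, INSR at 0.532 to 0.586 times and IGF2R at 0.680 to 0.742 times the WT level. These genes lay on the same side of WT in KO1 of experiment 1. IGF1R, IRS1 and IRS2 were above WT in those 3 libraries and below it in KO1 of experiment 1. Over all genes tested without glucose, 25.9% were called higher and 24.9% lower. The part of exon length in these values was not tested.

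The effect of KMT2D loss was then compared between the glucose conditions by testing the difference itself in all 14 libraries. Among the 9 members tested, 1 was called, against 11.3% of the 18678 genes tested. The KO effect on IGFBP6 was higher without glucose by 1.00 on the log2 scale (standard error 0.24, edgeR adjusted p = 0.0200). In glucose the IGFBP6 effect differed between the lines, and the KO -Glc libraries held 3 that resembled KO2 and 1 KO1, where the KO +Glc libraries held 2 of each, so glucose and the make-up by line cannot be told apart in this difference. Leaving out either of the WT +Glc library of experiment 1 or WT2 of experiment 2, any WT -Glc library or the KO2 -Glc library of experiment 2 moved it past the limit (0.84 to 1.10, edgeR adjusted p from 0.0510 to 0.0791). For IRS1 the difference was 1.69 (0.56, edgeR adjusted p = 0.0710) and for IRS2 1.31 (0.40, adjusted p = 0.0547), so that the contrast between the glucose conditions did not pass the test for either substrate. DESeq2 with the same design called both (adjusted p = 0.0402 and 0.00938). Without KO1 -Glc of experiment 1, edgeR gave 1.98 and 1.56 and called both, but all KO -Glc libraries then left resembled KO2. The differences for IGFBP3 (0.16), IGFBP4 (0.87), IGF1R (0.16), IGF2R (-0.45) and INSR (-0.28) did not pass. IGFBP5, at 0 in all -Glc libraries, gave no usable value.

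Glucose deprivation was tested across WT, KO1 and KO2 of experiment 1, where all libraries were sequenced alike. By edgeR none of the 8 members tested was called, against 1.10% of 16066 genes, and DESeq2 called none either. IRS2 was the 1 member with an unadjusted p under 0.05 (log2 fold change 0.83, standard error 0.29, edgeR adjusted p = 0.158). Without the KO1 +Glc library, edgeR called IRS1 and IRS2, and without the KO1 -Glc library or either WT library it called IRS2. IGFBP3 (-0.03), IGF2R (-0.01) and INSR (-0.10) lay close to 0.

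With glucose, the lines were also tested apart. KO2 differed from WT in 8 of the 10 members, against 34.6% of all 21850 genes tested, and KO1 in 4 of 10, against 32.0%. The 4 genes of KO1 were IGFBP4, IGFBP5, IGF1R and INSR, and each of them was also called in KO2, in the same direction. IGFBP4 was higher by 0.71 in KO1 (standard error 0.12, edgeR adjusted p = 2.02e-04) and by 1.79 in KO2 (0.12, adjusted p = 4.33e-09). INSR was lower, with -0.56 in KO1 (0.11, edgeR adjusted p = 4.99e-04) and -0.78 in KO2 (0.11, adjusted p = 1.76e-05). IGFBP5 was higher by 2.69 in KO1 and by 1.92 in KO2. For IGFBP5, with 0 counts in experiment 1, each line's value rests on 1 library, and the call was lost when that library was left out. Its calls thus carry no weight as agreement between the lines. All the KO1 and KO2 values above share the WT libraries.

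KO2 had further changes in the axis. IGFBP3 was higher by 1.14 (standard error 0.09, edgeR adjusted p = 2.56e-08), IGFBP6 by 0.75 (0.12, adjusted p = 1.18e-04) and IRS1 by 0.48 (0.09, adjusted p = 3.72e-04), and IGF2R was lower, at -0.52 (0.08, adjusted p = 4.70e-05). In KO1 the same genes had 0.12, 0.16, -0.14 and 0.07, and none of them passed the test. IRS2 was at -0.13 in each line.

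The direct test of KO1 against KO2 called 6 of the 10 members, against 14.7% of all genes. Lower in KO1 were IGFBP3 (-1.02, standard error 0.10, edgeR adjusted p = 2.07e-06), IGFBP4 (-1.08, 0.13, adjusted p = 2.42e-05), IGFBP6 (-0.59, 0.14, adjusted p = 0.00676), IGF1R (-0.49, 0.10, adjusted p = 0.00203) and IRS1 (-0.62, 0.10, adjusted p = 3.05e-04). IGF2R was higher in KO1 (0.60, 0.09, edgeR adjusted p = 1.20e-04). INSR, at 0.22 (0.12, edgeR adjusted p = 0.272), and IGFBP5, at 0.77 (0.49, adjusted p = 0.370), did not pass. With 1 library of a line in each experiment, 2 per line in all, these tests rest on a spread pooled over 7 libraries.

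**Figure D5:**
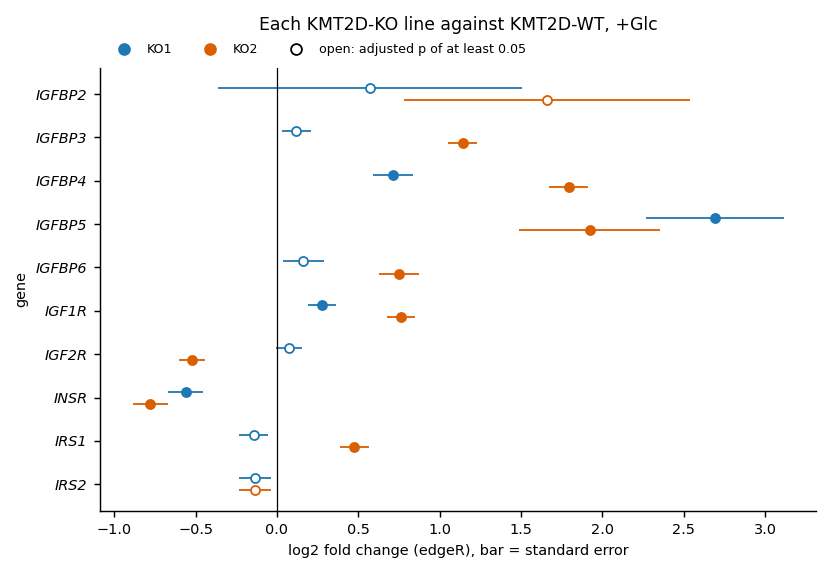
Log2 fold change against WT cells kept in glucose (horizontal axis) of the 10 members in KO1 and in KO2, with the standard error as a bar and filled points for an adjusted p under 0.05. KO2 is farther from 0 than KO1 for IGFBP3 (1.14 against 0.12), IGFBP4 (1.79 against 0.71) and IGF1R (0.76 against 0.28), and IGF2R is lower in KO2 alone (-0.52 against 0.07).

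Around the members, 48 further genes of the axis were counted in 6 lists: ligands, other binding proteins, proteases and their regulators, IGF2 mRNA-binding proteins, adaptors, and PI3K-AKT genes. With glucose 40 of the 48 were tested, 9 were called higher and 10 lower, and the median log2 fold change was 0.00, where 13.0% of all genes tested were higher and 11.7% lower. Without glucose 36 were tested, with 9 higher, 9 lower and a median of -0.03, where 25.9% of all genes were higher and 24.9% lower. These counts, and those of the lists below, are to be read against these shares.

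Large changes were found among the proteases and their regulators (1 higher and 2 lower of 5 tested, in each condition). STC2, stanniocalcin 2, a secreted inhibitor of the protease PAPP-A that frees IGF from IGFBP4, had 5.48 ± 0.793 CPM (SD, n = 3) in WT and 65.7 ± 18.1 CPM (SD, n = 4) in KO cells with glucose, a log2 fold change of 3.57 (standard error 0.24, edgeR adjusted p = 4.75e-05). Without glucose it had 29.4 ± 6.30 CPM and 373 ± 179 CPM (3.64, 0.50, edgeR adjusted p = 0.00118). HTRA1, a serine protease that cuts IGFBP5 among other substrates, fell from 91.8 ± 18.7 CPM to 14.3 ± 2.93 CPM with glucose (-2.68, 0.17, edgeR adjusted p = 4.01e-05). It fell from 73.7 ± 14.7 CPM to 21.6 ± 2.00 CPM without glucose (-1.83, 0.09, edgeR adjusted p = 4.33e-05). The fall was smaller without glucose by 0.88 (0.21, edgeR adjusted p = 0.0222). ADAM12, a metalloprotease that cuts IGFBP3 and IGFBP5, had 13.4 to 19.2 CPM in WT cells with glucose and 14.1 to 14.5 CPM without it. In KO cells it had at most 0.395 CPM with glucose and at most 0.0948 CPM without glucose, near or under the floor, and it was called lower in both conditions (edgeR adjusted p = 4.75e-05 and 3.94e-05). PAPPA, PAPPA2 and STC1 were too low to be tested.

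Of the 3 IGF2 mRNA-binding proteins, which bind and stabilise many mRNAs, 2 were higher and 1 lower with glucose. IGF2BP1 rose by 0.87 on the log2 scale, to 183 ± 11.9 CPM in KO cells (standard error 0.08, edgeR adjusted p = 1.32e-04), and IGF2BP2 fell from 373 ± 86.5 CPM to 258 ± 23.8 CPM (-0.44, 0.10, edgeR adjusted p = 0.0119). IGF2BP3 rose from 8.09 ± 2.79 CPM to 20.9 ± 6.51 CPM with glucose (edgeR adjusted p = 2.64e-04) and from 5.22 ± 0.712 CPM to 16.0 ± 3.54 CPM without glucose (edgeR adjusted p = 1.31e-04). Without glucose it was the 1 gene called of the 3.

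Of the other binding proteins 3 of 4 were tested with glucose. IGFBP7, which binds IGFs weakly, was slightly lower in KO cells (-0.28, standard error 0.09, edgeR adjusted p = 0.0409), although its libraries spread from 67.3 to 133 CPM in WT and from 54.7 to 114 CPM in KO. Without glucose it had 0.18 (edgeR adjusted p = 0.233), and the difference between the conditions was called (0.49, 0.13, edgeR adjusted p = 0.0308). IGFBP1 was called lower and IGFALS higher with glucose, but with at most 26 and 36 counts in any library both passed the filter through the group in which they were high. These 2 genes, and IRS4 below, were named after their values were seen.

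Among the adaptors, 1 was higher and 3 were lower of 13 tested with glucose, and 2 were higher and 4 lower of 12 tested without it. The SOCS proteins are feedback inhibitors that can bind the receptors and mark IRS proteins for degradation. SOCS3 had 11.5 ± 2.02 CPM in WT and 5.70 ± 0.667 CPM in KO cells with glucose (-1.03, standard error 0.16, edgeR adjusted p = 0.00188), and 12.1 ± 1.88 CPM and 3.68 ± 1.97 CPM without it (-1.93, 0.28, edgeR adjusted p = 0.00150). SOCS2 was lower in both conditions (-0.55, edgeR adjusted p = 0.00580, and -0.85, adjusted p = 0.00750), and SOCS1 without glucose (-1.27, 0.27, edgeR adjusted p = 0.00801). GAB1, a docking protein, was lower with glucose (-0.49, 0.15, edgeR adjusted p = 0.0378). The adaptor called higher with glucose was IRS4, with at most 19 counts in any library, which passed the filter on low counts through the KO group, so its call has no weight.

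The 16 PI3K-AKT genes were tested with glucose, where 4 were higher and 2 lower, and 15 of them without glucose, where 5 were higher and 3 lower. PIK3R3, a regulatory subunit of PI3K, fell from 7.59 ± 1.68 CPM to 2.88 ± 0.411 CPM with glucose (-1.35, standard error 0.19, edgeR adjusted p = 0.00114) and from 4.53 ± 0.563 CPM to 0.950 ± 0.498 CPM without it (-2.28, 0.38, edgeR adjusted p = 0.00269). FOXO1 and FOXO4, transcription factors that AKT keeps out of the nucleus, were higher in both conditions. FOXO4 was higher by 0.83 (0.14, edgeR adjusted p = 0.00345) with glucose and by 1.30 (0.18, adjusted p = 0.00117) without it, and FOXO1 by 0.89 (0.27, adjusted p = 0.0424) and 0.77 (0.18, adjusted p = 0.00993).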

How the data were processed

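RNA-seq of the 14 libraries was mapped by the authors with HISAT2 and counted per gene name with featureCounts 2.0.3 on Ensembl 102 (GRCh38), without strand and on primary alignments. The deposited values are raw counts. Groups were taken from the labels, and the experiment named there was the block that pairs libraries. Genes were kept with filterByExpr (minimum count 10), normalized by TMM and tested with edgeR 4.0.16 in R 4.3.3 (quasi-likelihood, Benjamini-Hochberg, adjusted p under 0.05), with experiment as covariate (within each glucose condition for the difference, and line for glucose deprivation). Standard errors were derived from the fold change and the F value. The study's methods name DESeq2 (1.42.0 here) and state no design. It was run as an alternative, beside no covariate, RLE, no filter, halved counts, single experiments, summed pairs and each library left out. CPM values use 1 TMM normalization over the 14 libraries. Log2 levels used a pseudocount of 0.1 CPM. The fits were tested on simulated data. All 10 members were named, with up to 3 called genes of at least 1 CPM per list. The members and lists were chosen with earlier results of these data known. Whether libraries of a group came from separate cultures is not stated beyond the 2 experiments, so p-values measure the spread between libraries.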

Additional observations from a re-analysis of the deposited data

Results flagged for a closer look

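Within the 4 KO -Glc libraries, KO1 of experiment 1 lay far below the other 3 for 3 members. IGFBP3 was at 77.3 CPM there, IGFBP4 at 72.3 CPM and IRS2 at 37.1 CPM, and the gap to the next library took up 0.882, 0.833 and 0.969 of the whole range. Of 20 groups of 4 libraries examined, 3 were singled out in this way. All 3 point to the same library, so they are not independent and are not set against a rate expected by chance.

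The KO effect differed between the glucose conditions for IGFBP6, by 1.00 on the log2 scale (edgeR adjusted p = 0.0200), higher without glucose. The make-up of the KO groups by line, as the libraries resemble them, differed between the conditions.

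The lines KO1 and KO2 differed with glucose in 6 members. The log2 difference of KO1 from KO2 was -1.02 for IGFBP3, -1.08 for IGFBP4, -0.59 for IGFBP6, -0.49 for IGF1R, 0.60 for IGF2R and -0.62 for IRS1 (edgeR adjusted p between 2.07e-06 and 0.00676).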

How the results depend on the processing

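Without the replicate block (no experiment term, or no line term for glucose deprivation) far fewer genes were called: 971 in place of 5042 with glucose, 3659 in place of 8521 without glucose, 70 in place of 2105 for the difference, 0 in place of 177 for glucose deprivation (1034 at an unadjusted p under 0.05), 530 in place of 6993 for KO1, 576 in place of 7563 for KO2 and 11 in place of 3215 for KO1 against KO2. Members called then fell to 0 of 4 with glucose (3 at an unadjusted p under 0.05, and 5 by DESeq2 with the block), 0 of 1 for the difference, 0 of 4 for KO1, 1 of 8 for KO2 and 0 of 6 for KO1 against KO2, and were 6 of 7 without glucose.

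Experiment 1 alone called 304 genes and 0 members with glucose and 0 genes and 0 members without glucose (2134 genes and 3 members at an unadjusted p under 0.05), and experiment 2 alone called 2336 genes and 2 members with glucose and 12888 genes without glucose. DESeq2 without a covariate called 2228 genes and 2 members with glucose and 4887 genes without it, and with the block 3416 genes and 3 members for the difference and 590 genes for glucose deprivation. Summing the close pairs gave 2785 genes and 3 members without glucose and 258 genes and 0 members for the difference. RLE called 2 members for the difference and 329 genes for glucose deprivation. With no filter 5 members were called for the difference, and 1158 genes and 1 member for glucose deprivation. All 14 libraries in 1 fit called 7631 genes and 4 members for glucose deprivation.

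With each library left out in turn, called genes ran from 2142 to 5048 with glucose, 6031 to 12448 without glucose, 788 to 4230 for the difference, 162 to 1336 for glucose deprivation, 3933 to 6997 for KO1, 4239 to 7571 for KO2 and 1094 to 3974 for KO1 against KO2. Members called ran from 1 to 5, 4 to 8, 0 to 3, 0 to 2, 2 to 6, 7 to 8 and 4 to 6 in the same order.

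No member called in a comparison changed sign under any alternative run, but some values that had not been called did. With a library left out, the difference of the KO effect ran from -0.073 to 0.43 for IGFBP3 (-0.013 without the block) and from -0.094 to 0.40 for IGF1R. In the same way glucose deprivation gave -0.10 to 0.066 for IGFBP3, -0.30 to 0.468 for IGF2R, -0.28 to 0.127 for INSR and -0.240 to 0.74 for IRS1, and KO1 against KO2 gave -1.10 to 0.31 for IGFBP2, -0.73 to 1.00 for IGFBP5 and -0.042 to 0.037 for IRS2. Under glucose deprivation IGFBP3 was 0.0059 with DESeq2, 0.0061 with RLE and 0.52 with all 14 libraries, and IGF2R was 0.059 without the block, 0.026 with DESeq2, 0.027 with RLE and 0.0084 with no filter. IRS2 in KO1 against KO2 was 9.9e-04 without the block, 0.0026 with DESeq2, 0.0022 with RLE and 0.017 with no filter. The cause of these shifts was not tested.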
